A study of Mus musculus with 6 samples.

Results

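The genes described here encode receptors of the interleukin-1 (IL-1), IL-18 and IL-17 cytokine families and the adaptor MyD88, as measured in regulatory T cells (Tregs) with and without histone deacetylase 11 (HDAC11). They were chosen by name from a list of 10 genes, and 9 of these were found on the array, by 13 probe sets that each carried 1 gene symbol, among 12393 genes in all. Il1rl1, which encodes the IL-33 receptor ST2, was not analysed here, since no probe set used here named it alone. The list was drawn up with the comparison of the genotypes already known, so levels and differences of these 9 genes are descriptions. Calls at a threshold are counted for them only as a way to describe size, no p-value of them is given and nothing is read from the calls.

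The study compared 6 Affymetrix Mouse430A arrays, 3 of each genotype, hybridised with RNA from CD4+CD25+ cells separated on magnetic beads, a procedure that enriches Tregs and can leave other cells. The control cells came from WT C57BL6 mice. The HDAC11-/- cells came from fl-HDAC11/Foxp3cre mice, in which a floxed Hdac11 allele is cut by a Cre recombinase expressed from Foxp3 (the YFP-Cre knock-in), on a C57BL/6 background. Mice were 6 to 8 weeks old unless stated otherwise, and each genotype is given as 3 independent samples, without saying whether 1 sample is 1 mouse or a pool. The WT mice carried neither Cre nor the floxed allele, so the loss of HDAC11 and the presence of these alleles cannot be told apart. Cre from Foxp3 leaves Hdac11 intact in any cell of the preparation that never expressed Foxp3.

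The arrays of a genotype were close to each other, with correlations of 0.997 among WT arrays and of 0.998 to 0.999 among HDAC11-/- arrays, against 0.985 to 0.988 between genotypes. The 27 bacterial control probe sets served as a background mark, the highest of them lying between 5.06 and 5.48 on the log2 scale. The probe set of Foxp3, the defining transcription factor of Tregs, lay at or below that mark on all 6 arrays, so the cell type could not be checked by it. The other genes of the Treg and T cell list (Il2ra, Ctla4, Ikzf2, Tnfrsf18, Cd4, Cd3e, Cd3d and Cd3g) were above it. The log2 fold changes of the 2 Hdac11 probe sets were -0.12 (SE 0.07, limma adjusted p = 0.222) and -0.10 (SE 0.12, adjusted p = 0.532). No source used here gives their position relative to the deleted part, so they check nothing.

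IL-1 and IL-18 are related cytokines that signal through paired receptor chains. A ligand-binding chain, IL-1R1 (Il1r1) or IL-18R1 (Il18r1), recruits an accessory chain, IL-1RAcP (Il1rap) or IL-18RAP (Il18rap), and the joined intracellular TIR domains bind MyD88, which leads through IRAK kinases and TRAF6 to NF-kB. IL-1R2 (Il1r2) binds IL-1 but has no TIR domain and so acts as a decoy, and Tregs are among the cells known to carry it. IL-17 receptors are also paired. IL-17RA (Il17ra) is shared, and joins IL-17RB (Il17rb) to bind IL-25, IL-17RC (Il17rc) to bind IL-17A and IL-17F, or IL-17RE (Il17re) to bind IL-17C. These pairs signal through the adaptor Act1 (Traf3ip2) rather than through MyD88.

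Il1r2, Il1r1, Il18r1 and Il18rap lie in 1 gene cluster on chromosome 1, and their promoters are printed because genes of this cluster differed between genotypes in opposite directions. The sequences are from RefSeq (build GRCm38.p6), 5′ to 3′, ending at the last base before the transcription start. They are up to 250 bases long, without stretches that another annotated gene covers. Capitals mark matches to CACGTG (an E-box), GGAANTTCC (a form of the NF-kB element) and TGANTCA (the AP-1 element), searched on both strands.
Il1r2, chr1:40085852-40086092, + strand: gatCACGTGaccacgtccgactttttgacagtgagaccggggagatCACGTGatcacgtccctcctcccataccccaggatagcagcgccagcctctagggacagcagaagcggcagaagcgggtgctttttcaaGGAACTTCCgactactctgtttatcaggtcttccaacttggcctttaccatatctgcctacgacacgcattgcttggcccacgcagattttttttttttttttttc
Il1r1, first start, chr1:40224830-40225079, + strand: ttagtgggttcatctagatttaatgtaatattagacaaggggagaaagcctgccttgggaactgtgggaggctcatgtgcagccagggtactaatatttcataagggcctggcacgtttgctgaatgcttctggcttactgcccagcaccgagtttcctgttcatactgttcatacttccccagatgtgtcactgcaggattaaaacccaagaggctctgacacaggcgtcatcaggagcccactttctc
Il1r1, second start, chr1:40266336-40266585, + strand: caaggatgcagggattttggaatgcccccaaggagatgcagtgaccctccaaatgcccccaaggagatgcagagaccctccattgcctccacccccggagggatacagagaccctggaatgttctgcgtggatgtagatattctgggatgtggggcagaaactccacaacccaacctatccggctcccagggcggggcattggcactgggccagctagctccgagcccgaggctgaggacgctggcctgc
Il18r1, chr1:40465419-40465551, + strand: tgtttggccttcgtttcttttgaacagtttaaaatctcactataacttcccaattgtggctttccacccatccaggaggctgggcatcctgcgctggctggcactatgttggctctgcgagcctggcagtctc
Il18rap, chr1:40515112-40515361, + strand: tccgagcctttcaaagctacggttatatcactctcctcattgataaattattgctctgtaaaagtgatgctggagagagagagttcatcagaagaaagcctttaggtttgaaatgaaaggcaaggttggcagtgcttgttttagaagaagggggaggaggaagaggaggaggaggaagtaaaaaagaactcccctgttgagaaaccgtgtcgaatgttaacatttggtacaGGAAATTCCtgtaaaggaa

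The stretch before Il18r1 is the whole gap of 133 bases between the end of Il1rl1 and the first annotated start of Il18r1. Il18rap had 1 NF-kB form, beginning 19 bases before its start, and Il1r2 had 1, beginning 106 bases before its start. That form was found in 0.813% of 32851 windows of 250 bases before annotated starts. Il1r2 also had the E-box at 2 places, beginning 238 and 195 bases before its start, and 6.02% of all windows held at least 1. Neither window of Il1r1 had any of 5 letter patterns searched, which also included TGTGGT (bound by RUNX factors, in 14.0% of windows) and TTCNNNGAA (bound by STAT factors, in 7.02%). TTCNNNGAA was found before Il1r2, where it overlaps the NF-kB form, before Myd88 and before the third annotated start of Il18r1. TGANTCA, in 6.75% of windows, was found before Il17rb, and TGTGGT before Il1rl1. The table had 13 windows for 9 of the 10 listed genes, and Il17ra had none in it. The patterns were picked with these sequences in view, and a match is a description of letters, not of binding.

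Il1r1, Il18r1, Il18rap and the IL-17 receptor genes Il17rb and Il17re were lower in HDAC11-/- than in WT Tregs. The decoy Il1r2 and the brightest probe set of Il1rap, a signalling accessory chain, were slightly higher, at 0.30 and 0.28 log2 units. Il17ra and Myd88 differed little. A probe set is here called lower or higher where limma's Benjamini-Hochberg adjusted p over all probe sets was under 0.05 and the difference was at least 1.5-fold, the thresholds in the study's methods. By this rule 5 of the 13 probe sets were called lower, beside 5.03% of all 22626 probe sets, and 1 was called higher, beside 3.87%. By adjusted p alone 7 were lower, beside 22.4% of all, and 4 were higher, beside 23.2%. The 3 WT and 3 HDAC11-/- arrays did not overlap on 11 of the 13, beside 56.7% of all probe sets. The median log2 fold change of the 13 was -0.23, beside -0.03 for all probe sets, with a range of -1.60 to 0.61. Since the genes were chosen with this contrast known, nothing is read from these counts.

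**Figure D1:**
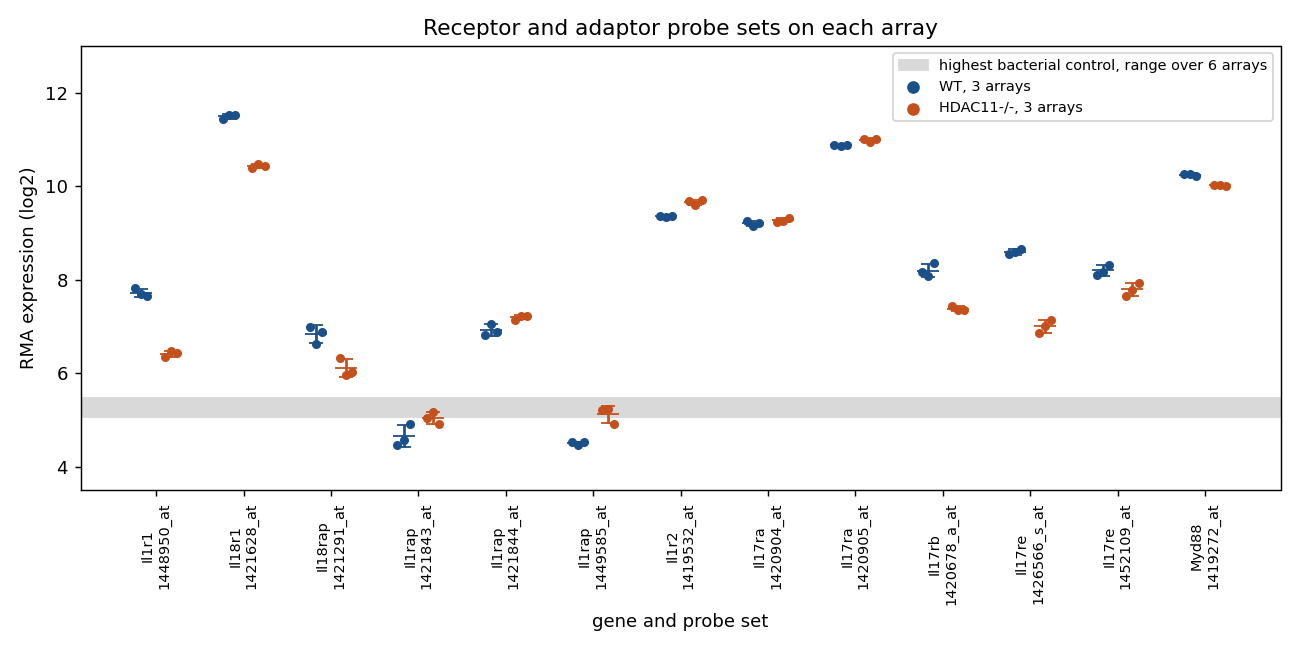
Level of each receptor or adaptor probe set on each array (y axis, log2 expression after RMA; x axis, gene and probe set). Points are arrays, WT in blue and HDAC11-/- in orange, bars are the mean and SD of 3 arrays, and the grey band is the range over arrays of the highest bacterial control. The widest separations are those of Il17re probe set 1426566_s_at, Il1r1 and Il18r1, and 2 of the 3 Il1rap probe sets lie at the grey band. Heights of different probe sets cannot be compared.

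Il1r1, the signalling IL-1 receptor, had log2 levels of 7.82, 7.70 and 7.64 on the WT arrays and of 6.35, 6.47 and 6.44 on the HDAC11-/- arrays (probe set 1448950_at). Every HDAC11-/- array lay more than 1 log2 unit below every WT array. The log2 fold change was -1.30 (SE 0.06), or 2.46-fold lower. In bulk samples such as these, fewer cells carrying a receptor and less of its RNA per cell cannot be told apart.

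Il18r1, the ligand-binding chain for IL-18, had levels of 11.44, 11.52 and 11.51 in WT and of 10.39, 10.47 and 10.42 in HDAC11-/- (probe set 1421628_at). The arrays of each genotype lay within about 0.1 of each other, and the genotypes were far apart. The log2 fold change was -1.07 (SE 0.05), or 2.09-fold lower. Il18rap, the accessory chain without which IL-18R1 does not signal, had levels of 6.99, 6.62 and 6.88 in WT and of 6.32, 5.96 and 6.03 in HDAC11-/- (probe set 1421291_at). It was the noisier of the pair, with an SD of 0.19 in each genotype against 0.04 for Il18r1, and the lowest WT array was still above the highest HDAC11-/- array. The log2 fold change was -0.73 (SE 0.13), or 1.66-fold lower. Both chains of the IL-18 receptor were thus lower on every HDAC11-/- array than on any WT array.

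For IL-1, unlike IL-18, the accessory chain was not called lower. Il1rap, whose product is shared by IL-1R1, ST2 and the IL-36 receptor, was measured by 3 probe sets. Its brightest, 1421844_at, read 6.82, 7.06 and 6.87 in WT and 7.14, 7.22 and 7.23 in HDAC11-/-. The genotypes were separated by a small gap, with a log2 fold change of 0.28 (SE 0.07), which is short of 1.5-fold. Probe set 1421843_at read 4.46, 4.57 and 4.92 in WT and 5.03, 5.18 and 4.91 in HDAC11-/-, and the genotypes overlapped. Probe set 1449585_at read 4.52, 4.47 and 4.53 in WT and 5.20, 5.24 and 4.91 in HDAC11-/-. Every WT array lay at or below the bacterial controls on these last 2 probe sets, and so did 2 of the 3 HDAC11-/- arrays on each, so they give no fold. Probe set 1449585_at is the only one of the 13 called higher, with a measured log2 difference of 0.61 (SE 0.09). It was not called without HDAC11-/- replicate 1 (0.57) or HDAC11-/- replicate 2 (0.55), nor when the arrays were scaled on 12 reference genes (0.47).

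Il1r2, the decoy receptor next to Il1r1 on the chromosome, went the other way. Its levels were 9.37, 9.34 and 9.35 in WT and 9.68, 9.59 and 9.69 in HDAC11-/- (probe set 1419532_at). The arrays did not overlap, and the WT SD was only 0.01. The log2 fold change of 0.30 (SE 0.05), or 1.23-fold, was short of the 1.5-fold threshold and was 0.16 when scaled on the reference genes. Il1r1 at -1.30 and Il1r2 at 0.30 therefore differed in opposite directions between the same arrays.

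**Figure D2:**
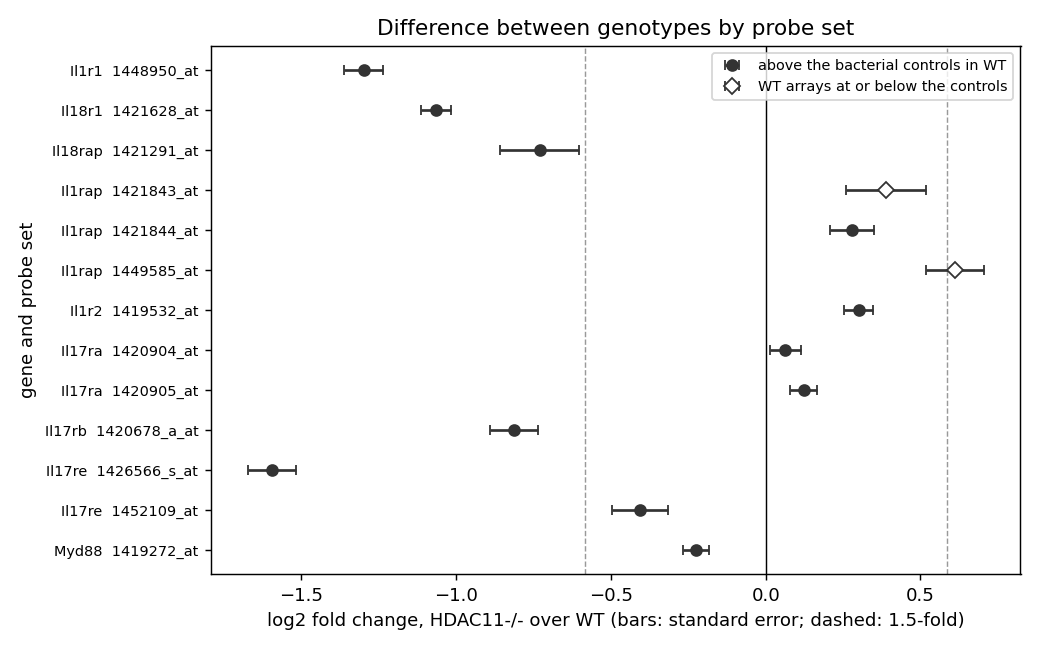
Log2 fold change of HDAC11-/- over WT for each of the 13 probe sets (x axis; y axis, gene and probe set), with bars for the standard error and dashed lines at 1.5-fold. Open diamonds are probe sets whose WT arrays all lay at or below the bacterial controls. Il1r1, Il18r1, Il18rap, Il17rb and 1 of the 2 Il17re probe sets lie beyond the lower line, from -0.73 to -1.60.

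Among the IL-17 receptor genes, Il17rb and 1 of 2 probe sets of Il17re were called lower, and the shared chain Il17ra was not. Il17re, the partner chain for IL-17C, had the largest difference of the set on probe set 1426566_s_at, with levels of 8.54, 8.58 and 8.66 in WT and of 6.86, 7.01 and 7.13 in HDAC11-/-. That is a log2 fold change of -1.60 (SE 0.08), or 3.02-fold lower, with a wide gap between the genotypes. Its other probe set, 1452109_at, read 8.11, 8.17 and 8.32 in WT and 7.66, 7.79 and 7.93 in HDAC11-/-. The genotypes were again apart, but the log2 fold change was only -0.41 (SE 0.09), short of 1.5-fold. The 2 probe sets thus had the same direction and disagreed in size. The suffix of the first marks probes shared between transcripts, and whether all of these belong to Il17re was not checked. The size of the difference in Il17re is therefore uncertain.

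Il17rb, the chain that binds IL-25 together with IL-17RA, had levels of 8.16, 8.07 and 8.35 in WT and of 7.44, 7.34 and 7.36 in HDAC11-/- (probe set 1420678_a_at). No HDAC11-/- array reached the lowest WT array. The log2 fold change was -0.81 (SE 0.08), or 1.76-fold lower. For Il17ra, the brighter probe set 1420905_at read 10.88, 10.86 and 10.87 in WT and 11.01, 10.95 and 11.02 in HDAC11-/-. The other, 1420904_at, read 9.25, 9.15 and 9.22 in WT and 9.24, 9.25 and 9.32 in HDAC11-/-, where the genotypes overlapped. The log2 fold changes of Il17ra were 0.12 (SE 0.04) and 0.06 (SE 0.05), and both turned to -0.02 and -0.08 when scaled on the reference genes, so no direction is given.

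Myd88, the adaptor of the IL-1 and IL-18 receptors and of most Toll-like receptors, read 10.26, 10.26 and 10.21 in WT and 10.02, 10.03 and 10.01 in HDAC11-/- (probe set 1419272_at). The arrays of a genotype nearly coincided and the genotypes were apart. The difference itself was small, at -0.23 on the log2 scale (SE 0.04), or 1.17-fold. Summed over the 9 genes as unlogged intensity, with the brightest probe set of each, the level ran from 7582 to 7715 on WT arrays and from 5892 to 6015 on HDAC11-/- arrays. Bright probe sets weigh most in such a sum, and most of its drop is that of Il18r1 (mean log2 level 11.49 in WT and 10.43 in HDAC11-/-). For Il17re the sum holds the probe set that was not called, 1452109_at.

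The 5 probe sets called lower were called under every alternative tried that tested them, other than a 2-fold threshold, which left Il1r1, Il18r1 and Il17re. Scaling on the reference genes moved the median log2 fold change of all probe sets from -0.03 to -0.18, and the share of higher among all calls from 43.5% to 20.3%. On that scale Il18r1 was at -1.21, Il1r1 at -1.44, Il18rap at -0.88, Il17rb at -0.96 and Il17re at -1.74.

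The cluster on chromosome 1 was not lower as a whole. The nearest measured gene before it, Map4k4, a kinase gene, had 3 probe sets above the controls with log2 fold changes of 0.32 (adjusted p = 0.00913), 0.19 (adjusted p = 0.0481) and -0.12 (adjusted p = 0.0707). Within it, Il1rl2, which encodes the IL-36 receptor, lay at or below the bacterial controls on all 6 arrays, and so did Pou3f3, the nearest measured gene after it. The order along the chromosome was therefore Il1r2 at 0.30, Il1r1 at -1.30, Il18r1 at -1.07 and Il18rap at -0.73, with the unmeasured Il1rl1 before Il18r1.

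**Figure D3:**
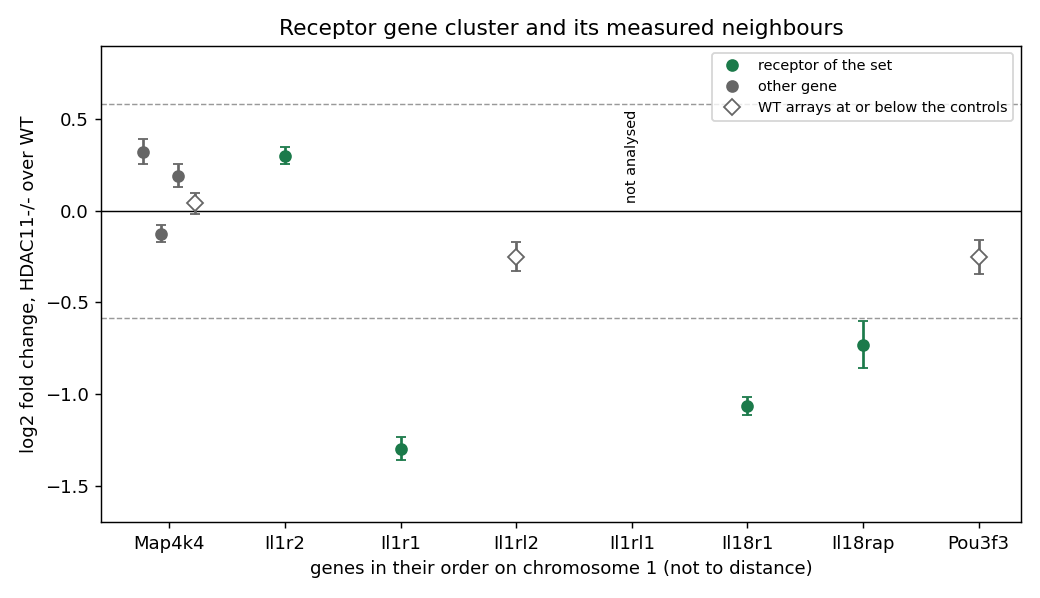
Log2 fold change of HDAC11-/- over WT (y axis, bars for the standard error, dashed lines at 1.5-fold) for the genes of the receptor cluster on chromosome 1 and the nearest measured gene on each side, in chromosome order and not to distance (x axis). Receptor genes of the set are green and other genes grey. Open diamonds lay at or below the bacterial controls on all WT arrays. Il1r1, Il18r1 and Il18rap are beyond the lower line, while Il1r2 is at 0.30.

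The other receptor genes lie apart from this cluster. Il17re is flanked by Jagn1 (0.18, SE 0.05, adjusted p = 0.0205) and by Il17rc, the chain that joins IL-17RA to bind IL-17A, whose 3 WT arrays read 6.55, 6.54 and 6.74 and HDAC11-/- arrays 6.07, 6.47 and 6.08. The log2 fold change of Il17rc was -0.40 (SE 0.12, adjusted p = 0.0333), short of 1.5-fold. The neighbours of Il17rb, Actr8 and Chdh, were at -0.01 and -0.08 and did not pass the test (adjusted p = 0.834 and 0.314), beside -0.81 for Il17rb. Il17ra lies beside Kdm5a, a histone demethylase gene, which was called lower (-1.24, SE 0.31, adjusted p = 0.0160) but varied widely between arrays and lost its call with a robust prior and an intensity trend together. Beside Myd88, Oxsr1 was at 0.39 (adjusted p = 0.00273), and the 2 probe sets of Acaa1a were at 0.07 and -0.34.

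The genes whose level followed that of Il18r1 most closely over the 6 arrays, among 12124 genes, were Nbeal2, Abhd14b, Tmem176b, Cd4 and Fam193b, with Pearson's r from 0.9993 to 0.9999. For Il1r1 they were Sharpin, Tug1, Pou6f1, Mfsd8 and Pan2, with r from 0.9988 to 0.9998. The 6 arrays form 2 genotype clusters, so such an r describes mostly the difference between genotypes, and 356 genes had an r over 0.99 with Il18r1 and 277 with Il1r1. The sizes differed widely within these lists, from -0.32 for Cd4 to -1.32 for Tmem176b beside -1.07 for Il18r1.

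Other genes of these pathways were counted in the same way. Of 64 further genes of the IL-1, IL-18, IL-17 and Toll-like receptor pathways, 50 were measured by 80 probe sets, of which 1 was called lower and 3 higher, beside 5.03% and 3.87% of all probe sets. By adjusted p alone 23 were lower and 21 higher, beside 22.4% and 23.2% of all, and 36 did not pass. Their median log2 fold change was -0.05, beside -0.03 for all probe sets. Leaving out 1 array gave 0 (without WT replicate 2) to 2 (without WT replicate 3) called lower.

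Of the ligands and their soluble inhibitors, 13 of 16 genes were measured, and no probe set of the 16 was called by limma or SAM. By limma's adjusted p alone 3 were lower, beside 22.4% of all. These 3, of Il1a, Il1rn and Il1f9, lay at or below the bacterial controls on all 6 arrays, so their differences cannot be read. An unadjusted p under 0.05 was found for 4, a share not counted over all probe sets. The further one, Il1f6, lay at or below the controls on 2 WT and all 3 HDAC11-/- arrays. Il1a, Il1rn, Il33, Il25, Il17d and the IL-36 genes Il1f8 and Il1f9 lay at or below the bacterial controls on all 6 arrays. Il18, the ligand of the lower IL-18 receptor, read 6.57, 6.78 and 6.77 in WT and 6.76, 6.64 and 6.62 in HDAC11-/-, with the genotypes overlapping (adjusted p = 0.755). Il18bp, its soluble inhibitor, also overlapped (adjusted p = 0.637). Of the other receptors, Sigirr, an inhibitory member of the IL-1 receptor family, was at -0.22 (adjusted p = 0.0139). Neither limma nor SAM called a gene of that list. An unadjusted p under 0.05 was found for 3 of its 6 probe sets, all 3 also lower by adjusted p, beside 22.4% of all. Among these 3, Il1rl2 lay at or below the controls on all 6 arrays.

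Among the intracellular signalling genes none of 34 probe sets of 16 genes was called by limma or SAM, though 12 were lower and 10 higher by limma's adjusted p alone, beside 22.4% and 23.2% of all probe sets. An unadjusted p under 0.05 was found for 25, a share not counted over all probe sets. The ubiquitin ligase gene Traf6, which acts below MyD88 and Act1, was higher by adjusted p on both probe sets above the controls, by 0.52 (adjusted p = 0.00637) and 0.25 (adjusted p = 0.0150), while all 3 WT arrays of its other probe set lay at or below them. Ube2n, its partner enzyme, was higher by 0.51 (adjusted p = 0.00136). Tab1, which activates the kinase TAK1, was lower by adjusted p, at -0.46 (adjusted p = 0.00101), as were 2 of the 4 probe sets of Irak1, the kinase bound by MyD88, at -0.32 and -0.30 (adjusted p = 0.00447 and 0.00301). The other Irak1 probe sets were at -0.16 and -0.15 and did not pass (adjusted p = 0.0957 and 0.0679). Traf3ip2, the Act1 gene, was at -0.19 (adjusted p = 0.0145). All of these differences were short of 1.5-fold.

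A list of NF-kB feedback genes held Tnfaip3, Zc3h12a and the IkB family genes Nfkbia, Nfkbib, Nfkbie, Nfkbiz and Bcl3, not all of which need restrain NF-kB. Of the 11 probe sets of these 7 genes, 3 were called higher and none lower, beside 3.87% and 5.03% of all probe sets. By adjusted p alone 8 were higher and 1 lower, beside 23.2% and 22.4%. As the list was chosen with earlier results of these data known, these counts are a description. Tnfaip3, which encodes the ubiquitin-editing enzyme A20 that limits IL-1 and Toll-like receptor signals, read 6.75, 6.86 and 6.81 in WT and 9.19, 9.21 and 9.15 in HDAC11-/-. It rose by 2.37 log2 units (SE 0.05, adjusted p = 1.67e-06). Nfkbia, the inhibitor IkB-alpha, rose by 0.59 on 2 of its 4 probe sets (adjusted p = 1.08e-04 and 2.30e-04), close to the 1.5-fold threshold. Its brightest probe set was at 0.31 (adjusted p = 0.00214) and the remaining one at 0.19 (adjusted p = 0.0450), and neither was called. Both Nfkbia calls were lost without WT replicate 2 (0.57 and 0.58), without HDAC11-/- replicate 1 (0.56 and 0.58) and on the reference-gene scale (0.44 on each). Of the 2 called probe sets, the dimmer also lost its call with weights per array (0.58). Nfkbiz, the nuclear IkB-zeta, was at 0.56 and 0.52, short of the threshold (adjusted p = 6.47e-04 and 7.17e-04).

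**Figure D4:**
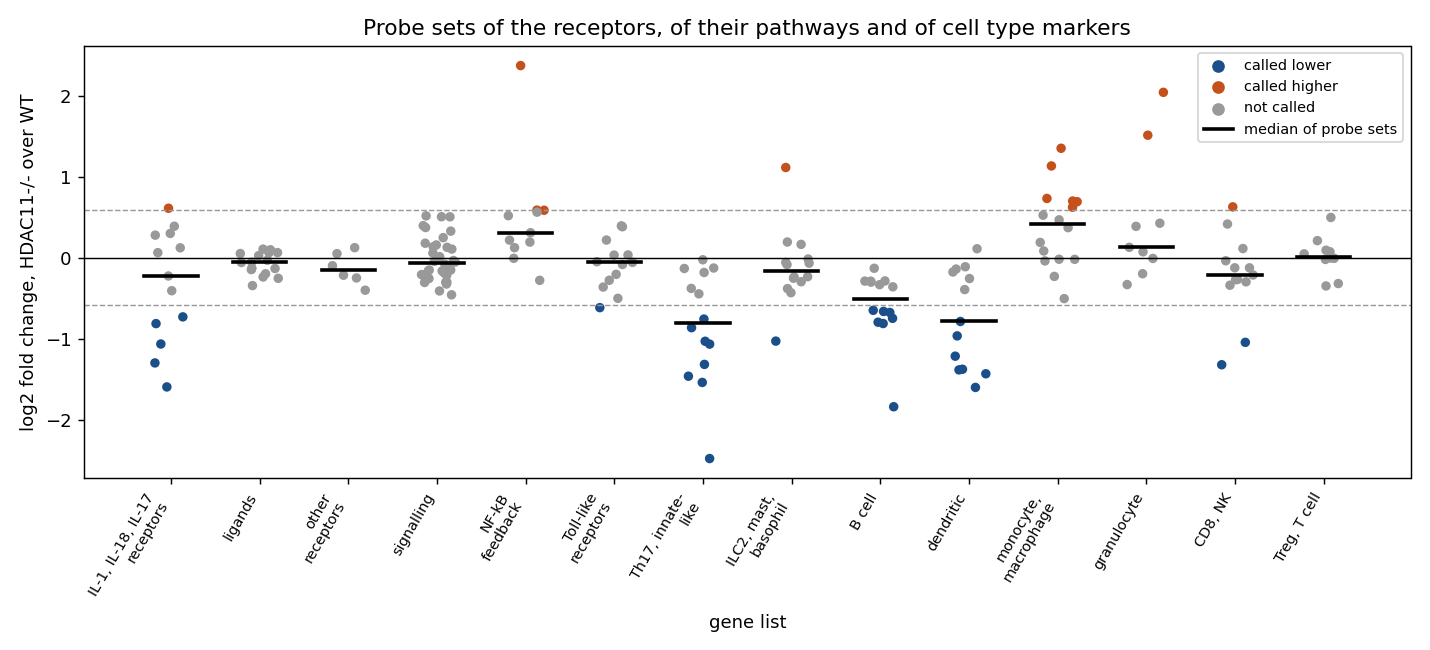
Log2 fold change of HDAC11-/- over WT (y axis) for each probe set of the receptor genes, of the other pathway lists and of cell type marker lists (x axis). Blue points were called lower, orange points higher and grey points neither, black lines are medians, and dashed lines are at 1.5-fold. The receptor list has a median of -0.23, while the medians are -0.81 for Th17 and innate-like markers and 0.42 for monocyte and macrophage markers. The dendritic list has a median of -0.79, which is the value of Cd74.

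Genes used as markers of several other cell types also differed between the genotypes, beside 5.03% of all probe sets called lower and 3.87% called higher. Which cells of the preparations expressed them, Tregs or others, was not tested. Of the Th17 and innate-like lymphocyte list, whose cells commonly carry IL-1R1, IL-18R1 and IL-17RE, 10 of 16 genes were measured, and 8 of 14 probe sets were called lower and none higher. Their summed unlogged level ran from 5402 to 5722 in WT and from 2533 to 2643 in HDAC11-/-. The genes called were Blk (-2.48), Tmem176a (-1.46 and -1.54), Tmem176b (-1.32), Ccr6 (-1.07), Sox13 (-1.03), Kit (-0.86 on 1 of 2 probe sets) and Maf (-0.76). Blk is also a B cell gene. Il17a was near the controls and did not differ beyond its spread (-0.13, adjusted p = 0.656), and the defining genes Il23r, Il17f, Il22, Cd163l1 and Trdc were not analysed here. The part of such cells, if present, in the receptor differences was not tested.

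The other marker lists moved in both directions. Group 2 innate lymphoid, mast cell and basophil markers, whose cells can carry ST2 and IL-17RB, had 1 of 14 probe sets called lower (Cpa3, -1.03) and 1 higher (Klrg1, 1.11). By adjusted p alone 4 were lower, among them Il13 (-0.38) and 1 of 2 Gata2 probe sets (-0.30), and 1 higher, beside 22.4% and 23.2% of all. Fcer1a, Hpgds, Il5, Mcpt8 and Ms4a2 lay at or below the controls on all arrays. The list summed to between 2510 and 2682 in WT and between 3133 and 3276 in HDAC11-/-. That higher sum reflects mostly its brightest genes, Klrg1 and Gata3 (0.17, adjusted p = 0.0662). B cell markers had 7 of 14 called lower, among them Ms4a1 (-1.84 on the brighter of 2 probe sets). Of the called probe sets, the dimmer of Ms4a1 and 1 of Fcer2a lay at or below the controls on all arrays. The called Cr2 lay there on 2 WT and all 3 HDAC11-/- arrays, and the called Blnk on all 3 HDAC11-/- arrays. Pax5, Ebf1 and Fcer2a were at or below the controls. The B cell list summed to between 1231 and 1295 in WT and between 791 and 812 in HDAC11-/-. Dendritic markers had 7 of 13 called lower, all of them class II genes or Cd74, on which the sum and median of this list mostly rest. Itgax (-0.39, adjusted p = 0.00129), Flt3 (0.11, adjusted p = 0.633) and Zbtb46 (-0.26 on its brightest probe set, adjusted p = 0.0444) were not called. Xcr1 lay at or below the controls. The dendritic list summed to between 5591 and 5766 in WT and between 2472 and 2549 in HDAC11-/-. Monocyte and macrophage markers had 6 of 16 called higher, among them Csf1r on 2 of 3 probe sets (1.13 and 0.73, with the brightest at -0.02). Vcam1 was called on its brightest probe set (1.35, adjusted p = 0.00232), with its others at 0.19 and -0.04. By adjusted p alone 9 were higher and 1 lower, beside 23.2% and 22.4% of all. Adgre1, Cd14 and C1qb, 1 of whose probe sets was called, lay at or below the controls on all arrays. The called C1qa and C1qc lay there on all 3 WT arrays, and C1qc also on 2 HDAC11-/- arrays. Fcgr3 was lower by adjusted p (-0.50, adjusted p = 0.0204). The list summed to between 360 and 389 in WT and between 448 and 503 in HDAC11-/-. Granulocyte markers had 2 of 9 called higher, S100a8 and S100a9, at least 1.44-fold and at least 1.25-fold, with Csf3r and Mpo at or below the controls, and summed to between 236 and 267 in WT and between 344 and 359 in HDAC11-/-. CD8 and NK markers had 2 of 13 called lower, Ncr1 (-1.04) and Fcer1g (-1.32), and 1 higher, Klrc1 (0.63, with its other probe set at -0.12). The Klrc1 call was lost without WT replicate 1, without WT replicate 3 and on the reference-gene scale. By adjusted p alone 5 were lower and 2 higher, among the higher Cd8b1 (0.42, adjusted p = 0.00671), beside 22.4% and 23.2% of all. The CD8 and NK list summed to between 1485 and 1614 in WT and between 1239 and 1271 in HDAC11-/-. The Treg and T cell list had none of 11 called by SAM or by limma. By limma's adjusted p alone 2 were higher and 2 lower, beside 23.2% and 22.4% of all probe sets. Higher were Ctla4 (0.50, adjusted p = 2.69e-04) and 1 of 2 Il2ra probe sets (0.21, adjusted p = 0.0187). Lower were 1 of 2 Cd4 probe sets (-0.32, adjusted p = 0.00121) and Ikzf2 (-0.35, adjusted p = 0.0453). The same 4 had an unadjusted p under 0.05. This list summed to between 30375 and 31219 in WT and between 32246 and 33166 in HDAC11-/-. The part of cells of these types, if present, in the receptor differences was not tested either.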

How the data were processed

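The authors labelled RNA from bead-separated CD4+CD25+ cells, hybridised it to Mouse430A arrays and normalized by RMA in MAYDAY, and the deposited table holds 1 log2 expression value for each of 22671 probe sets on 6 arrays. RMA assumes that most genes do not differ, which can shift all differences together. Probe sets were named through the platform annotation (20380 with 1 symbol, 691 with several, 1555 with none here). Leaving out 45 controls, 22626 were fitted by genotype alone in limma 3.58.1 (R 4.3.3), with Benjamini-Hochberg adjustment over all of them, and calls required 1.5-fold beside an adjusted p under 0.05. SAM, named in the methods, was an alternative over the 20 labelings of the arrays. Without detection calls, the highest bacterial control of each array marked background, and "at least" folds were taken against the higher of that control and the probe set's own value.

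The receptor genes and all lists were chosen with earlier results of these data known. Beyond them, the genes named are called genes and up to 4 of smallest adjusted p per direction in each pathway list, neighbours, the 5 genes most like Il18r1 and Il1r1, and called markers (up to 3 for lists other than Treg and Th17). Markers at background were named for that, and some markers not called were named where they limit how a list reads. The sources do not say if mice were pooled, so p-values measure the spread between these samples. On the log2 scale the median SD was 0.09 (WT) and 0.07 (HDAC11-/-), and 3 arrays of each genotype limit the precision. Replicate numbers did not pair the samples. The procedure was tested on simulated data. Further alternatives were a replicate block, a robust prior with an intensity trend, weights per array, other thresholds, a filter on dim probe sets, scales set by reference genes or by bacterial controls, and leaving out each array. Some list genes are not reported here.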

Additional observations from a re-analysis of the deposited data

How the results depend on the processing

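The 5 receptor probe sets called lower (Il1r1, Il18r1, Il18rap, Il17rb and 1 of Il17re) stayed called under SAM, a robust prior with an intensity trend, weights per array, both scalings and the replicate block, and without each array in turn. The filter on dim probe sets, which left out 11313, did not test Il18rap. With a gene represented by its brightest probe set, 4 genes were called lower, as the called Il17re probe set is the dimmer one over all 6 arrays, although it is the brighter in WT (8.60 against 8.20), so the difference itself decides which one is taken. The 1 receptor probe set called higher (Il1rap) became 0 when scaled on reference genes and under the dim filter, as did the count of genes when the brightest or the mean probe set stood for a gene. It ranged from 0 to 1 without each array in turn. A threshold of 2-fold left 3 receptor probe sets lower and 0 higher, 0 and 1 of the other pathway genes, and 393 and 253 of all probe sets. With no fold threshold these counts were 7 and 4, 23 and 21, and 5070 and 5254, against 1138 and 876 of all probe sets as reported. Scaling on reference genes gave 3 lower and 1 higher pathway probe sets, and 1933 and 493 of all, and the dim filter gave 701 lower of all. Pathway probe sets called lower ranged from 0 to 2 without each array in turn. The cause of these changes was not tested, apart from the thresholds and the dim filter, which act by construction.

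Differences that changed sign were all small. On the reference genes Il17ra gave -0.082 and -0.022, Map4k4 -0.10 (1 of 4 probe sets), Cldn16 (beside Il1rap, at or below the controls) -0.11 and Acaa1a -0.079 (1 of 2), and on the bacterial controls Actr8 gave 0.012. Without each array in turn, Actr8 ranged from -0.025 to 0.0027 (without WT replicate 3), that Map4k4 probe set from -0.0073 (without WT replicate 3) to 0.072, and that Acaa1a probe set from -0.030 (without HDAC11-/- replicate 1) to 0.14, with -0.0045 without WT replicate 1.

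Same-numbered samples deviated from their group means with correlations of 0.23, -0.02 and 0.16, so the numbers were not taken as pairs. With the replicate number as a block, 1154 probe sets were called lower and 877 higher, among them 5 and 1 of the receptors.

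Array number and signal over background limit these results. Differences near 1.5-fold pass or fail with single arrays, and 2 of 3 Il1rap probe sets, most ligands and Foxp3 had too little signal to be read. No probe set used here measured Il1rl1, and any cells of other types in the preparations were not told apart from Tregs.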

Other observations

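Toll-like receptors, most of which share MyD88 with the IL-1 and IL-18 receptors, were measured for 9 of 12 listed genes by 13 probe sets, of which limma called 1 lower and none higher, beside 5.03% and 3.87% of all probe sets. Tlr1, which pairs with TLR2 to sense bacterial lipoproteins, read 10.25, 10.37 and 10.24 in WT and 9.66, 9.68 and 9.67 in HDAC11-/-, a difference of -0.62 log2 units (SE 0.05, adjusted p = 2.20e-04). Its call was lost without WT replicate 2 (-0.58). Tlr2 was at 0.22 (adjusted p = 0.0181) and 2 of the 3 probe sets of Tlr7, a sensor of single-stranded RNA, at 0.38 and 0.39 (adjusted p = 0.0125 and 0.0177), all short of 1.5-fold. The brightest Tlr7 probe set was at -0.05 and did not pass (adjusted p = 0.398). Tlr5, a sensor of flagellin, was at -0.36 (adjusted p = 0.0109). Tlr9, a sensor of DNA, was at least 1.28-fold lower (adjusted p = 0.0166), since its HDAC11-/- arrays all lay at or below the bacterial controls. Tlr3, Tlr4 and Tlr8 lay at or below the controls on all 6 arrays.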
